A study of Mus musculus with 6 samples.

Results

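The genes that carry proteins into mitochondria and fold or degrade them there were compared between Myc/NrasG12V and Myc/Akt1 liver tumours of the mouse. The set was defined by name: every listed gene whose symbol starts with Timm or Tomm followed by a digit, pseudogenes left out, and 12 named chaperone, protease, peptidase and assembly genes (Hspd1, Hspe1, Hspa9, Trap1, Lonp1, Clpp, Clpx, Grpel1, Dnaja3, Pmpca, Pmpcb and Samm50). It held 37 of 39179 listed genes, 25 of them Timm or Tomm entries including the antisense RNA Tomm6os. The rule uses names alone, but the set was proposed with earlier results of these data known.

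Both groups were tumours raised in C57BL/6 wildtype mice by hydrodynamic injection, in which a large volume of DNA solution is pushed quickly through the tail vein so that hepatocytes take it up. The DNA was a transposon, a mobile element that inserts its cargo into the genome, and in both groups it delivered the transcription factor Myc. The Myc/NrasG12V group (3 libraries) also received NrasG12V, a constantly active mutant of the Ras family GTPase Nras, and the Myc/Akt1 group (3 libraries) also received the kinase Akt1. The promoters that drove the transposons, the age of the mice, the time of collection and whether libraries of the same group stem from different mice are not given in the sources used here, so p-values measure only the spread between these samples. Poly(A) RNA of whole tumour samples was sequenced as stranded single-end libraries. There was no normal liver among the samples analysed here.

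Most mitochondrial proteins are encoded in the nucleus and made in the cytosol. They cross the outer membrane through the TOM complex, from which the TIM23 complex and its Hspa9 motor draw proteins with a presequence into the matrix, the small TIM chaperones hand carrier proteins to the TIM22 complex, and the SAM complex inserts barrel proteins into the outer membrane. In the matrix the presequence is cut off by the processing peptidase, Hspd1 with Hspe1 and other chaperones fold the protein, and the Lonp1 and Clpx-Clpp proteases remove what is damaged.

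The libraries held 17881282 to 21780251 reads in Myc/NrasG12V and 22005319 to 27865094 in Myc/Akt1. Values are in CPM, a gene's reads divided by all counted reads of its library and put on a common scale. At these depths 3 reads, the limit that a count of 0 allows, came to 0.138 to 0.168 CPM in Myc/NrasG12V and 0.108 to 0.136 CPM in Myc/Akt1, for counting error only. Nras averaged 171 ± 25 CPM in Myc/NrasG12V and 56.0 ± 4.51 CPM in Myc/Akt1, and Akt1 averaged 65.1 ± 19.1 CPM in Myc/NrasG12V and 279.9 ± 33.8 CPM in Myc/Akt1 (SD, n = 3 each), as the labels have it. Albumin took 9.07 to 12.4% of reads in Myc/NrasG12V and 2.99 to 3.85% in Myc/Akt1. Transcripts of the mitochondrial genome took 2.05 to 3.99% in Myc/NrasG12V and 7.62 to 9.09% in Myc/Akt1.

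Transcripts of the import and chaperone genes were lower in Myc/NrasG12V tumours. Of the 33 members with enough reads to test, 26 were lower in Myc/NrasG12V, 0 were higher and 7 did not pass the threshold (limma on log2(CPM + 1), Benjamini-Hochberg adjusted p under 0.05 over 14365 genes). Among all tested genes 29.5% were lower in Myc/NrasG12V and 10% were higher. Summed over the 37 members, the level was 2315, 2557 and 2413 CPM in Myc/NrasG12V replicates 1, 2 and 3, against 6578, 6082 and 4757 CPM in Myc/Akt1 replicates 1, 2 and 3. The groups did not overlap, and the mean sum was 2.39-fold higher in Myc/Akt1. In whole tumours, fewer cells of a type and less RNA per cell cannot be told apart.

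The median log2 difference, Myc/NrasG12V minus Myc/Akt1, was -0.79 over the tested members and -0.26 over all tested genes. The size of the count depended on how the libraries were scaled, and the distance from the other genes changed little. With TMM factors, which correct for a few genes that take many reads, 17 members were lower and 0 higher, against 19.4% of all tested genes lower and 15% higher; the medians were -0.54 for members and -0.04 for all genes. With median-of-ratios factors 16 members were lower, against 18.3% of all genes. With upper-quartile factors, 15 members were lower, against 16.4% of all genes, and the medians were -0.43 for members and 0.05 for all genes. EdgeR's quasi-likelihood test on the recovered reads also called 15 members lower and 0 higher, against 17.5% lower and 16.6% higher among all genes. The median of the members lay 0.48 to 0.60 below that of all genes in these settings. Log2 differences below are on the CPM scale and carry the shift of -0.26.

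**Figure D1:**
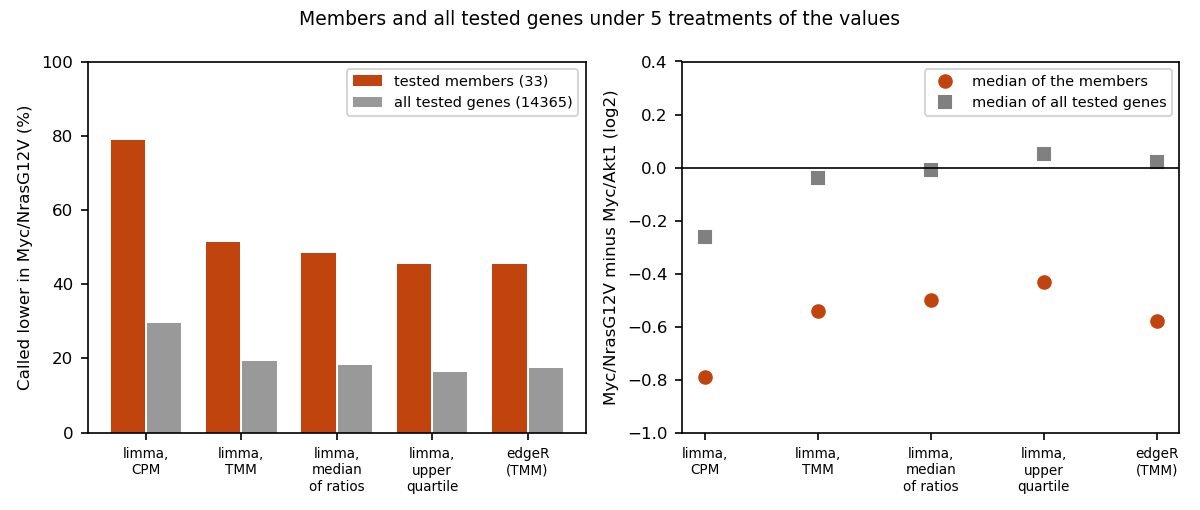
The left panel gives the percentage called lower in Myc/NrasG12V (adjusted p under 0.05) among 33 tested members and among 14365 tested genes, under 4 scalings with limma and under edgeR. The right panel gives the median log2 difference, Myc/NrasG12V minus Myc/Akt1, of the same genes: the count of lower members moves between 26 and 15 with the scaling, while the members lie below all genes in each.

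The 4 members without enough reads were Tomm6, a small TOM subunit, its antisense RNA Tomm6os, and the paralogs Timm8a2 and Tomm20l. They had 30, 53, 13 and 1 reads over all 6 libraries. Annotated exons of Tomm6 share 76.0% of their bases with the predicted gene Gm21981 on the same strand, and Gm21981 had at most 0.112 CPM in any library. Each tested member stood above the filter of 0.457 CPM in every library, the lowest value being 2.85 CPM for Tomm40l, so none was tested on the strength of the group where it was high.

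**Figure D2:**
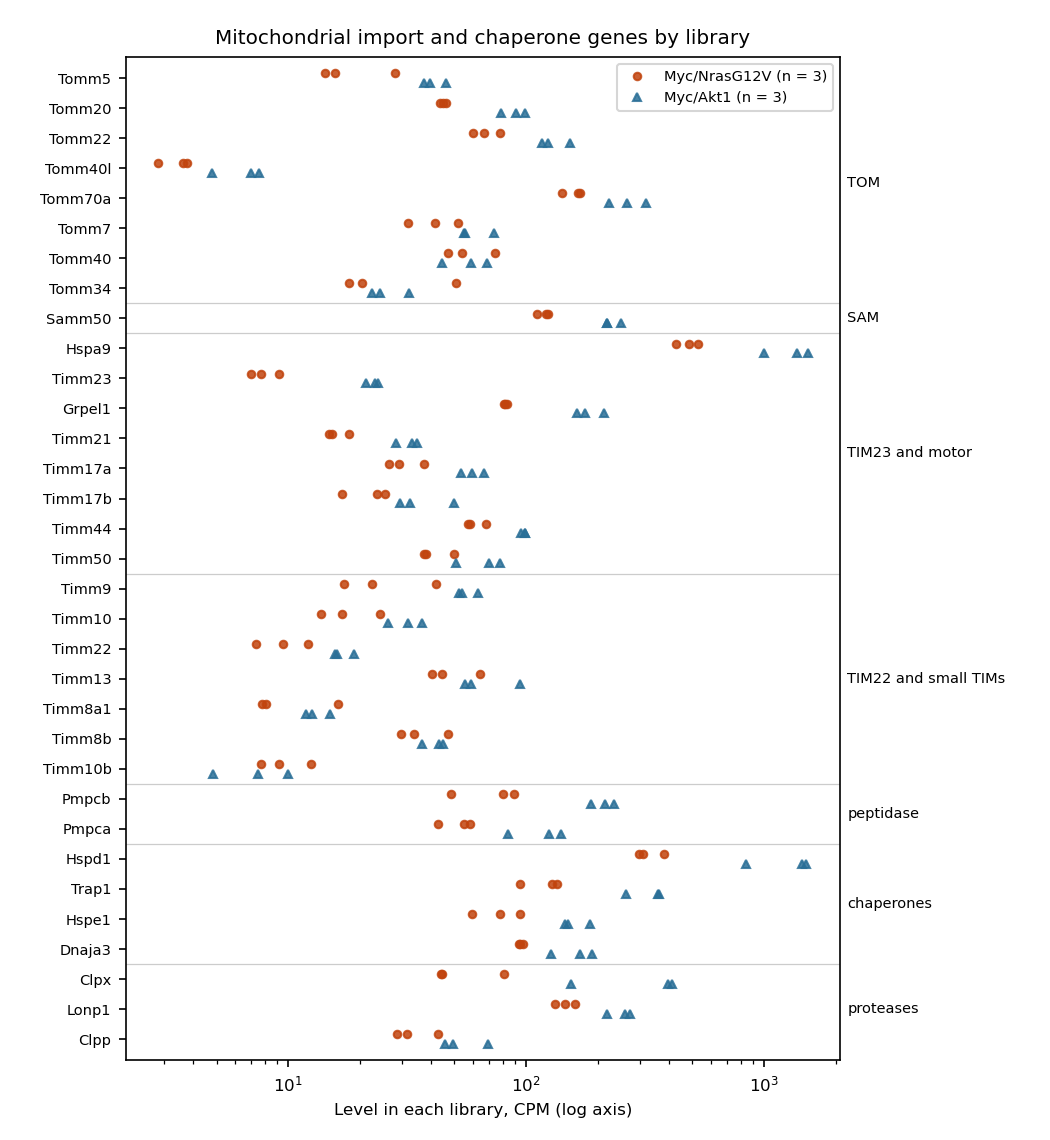
Each row is a tested member, grouped by role, and each point is the level of that gene in a library in CPM on a log axis, with 3 Myc/NrasG12V libraries as circles and 3 Myc/Akt1 libraries as triangles. In 27 of the 33 rows all circles lie left of all triangles.

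All Myc/NrasG12V libraries lay below all Myc/Akt1 libraries for 27 tested members, while 38.0% of all tested genes were separated in that direction. The 27 were the 26 called members and Tomm7. No member was separated in the other direction, where 14.8% of all tested genes were.

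At the outer membrane, 5 of 8 tested TOM genes were lower in Myc/NrasG12V, beside 29.5% of all tested genes. The median log2 difference of the 8 was -0.74, and the pore gene was not among the lower genes. With TMM factors 3 of the 8 were lower, beside 19.4% of all tested genes. Tomm40 forms the channel through which nearly all imported proteins pass. It had 53.7, 47.1 and 74.2 CPM in Myc/NrasG12V, against 58.8, 44.2 and 68.8 CPM in Myc/Akt1. The ranges overlapped, and the log2 difference of 0.02 (95% interval -0.50 to 0.55) had an adjusted p of 0.953. With TMM factors the log2 difference of Tomm40 was 0.28, and it was not called.

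The receptors next to the pore were lower in Myc/NrasG12V. Tomm20, which binds presequences, had 43.5, 44.9 and 46.0 CPM in Myc/NrasG12V, against 78.5, 99.3 and 91.0 CPM in Myc/Akt1. Its log2 difference was -0.98 ± 0.16 (SE) with an adjusted p of 0.00181. Tomm22, the central receptor of the complex, had 59.8, 66.8 and 77.3 CPM in Myc/NrasG12V, against 153, 123 and 117 CPM in Myc/Akt1 (-0.93 ± 0.18, adjusted p 0.00384). For both receptors the groups were well apart. Tomm70a, which receives carrier proteins together with cytosolic chaperones, had 168, 165 and 142 CPM in Myc/NrasG12V, against 318, 265 and 222 CPM in Myc/Akt1 (-0.74 ± 0.18, adjusted p 0.0128).

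Of the small subunits that stabilise the complex, Tomm5 had 14.3, 15.7 and 28.1 CPM in Myc/NrasG12V, against 39.5, 37.3 and 46.1 CPM in Myc/Akt1 (-1.10 ± 0.26, adjusted p 0.0107). Myc/NrasG12V replicate 3 was well above its group mates for this gene and still below every Myc/Akt1 library. Tomm7 had a log2 difference of -0.56 and an adjusted p of 0.0718. Tomm34, a cytosolic protein that carries a Tomm name for its part in delivering precursors, had a log2 difference of 0.03 with a 95% interval from -0.80 to 0.86. Its Myc/NrasG12V values were 20.4, 18 and 50.9 CPM, with replicate 3 far above the others, and without that library the log2 difference was -0.42.

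Tomm40l, a paralog of the pore gene, was low in all libraries, at 3.77, 3.63 and 2.85 CPM in Myc/NrasG12V and 4.79, 7.54 and 6.95 CPM in Myc/Akt1 (-0.74 ± 0.24, adjusted p 0.0388). Annotated exons of Tomm40l share 64.3% of their bases with Nr1i3 on the opposite strand. Nr1i3, a nuclear receptor of the liver, had 60.8, 39.8 and 127 CPM in Myc/NrasG12V and 14.7, 37.2 and 46.0 CPM in Myc/Akt1 (log2 difference 1.17, adjusted p 0.0879). The strand setting of the authors' counting is not given in the sources used here. The calls of Tomm40l and Tomm70a were lost with TMM factors.

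Samm50, the core of the SAM complex, had 121, 111 and 123 CPM in Myc/NrasG12V, against 250.3, 218 and 218 CPM in Myc/Akt1. The spread within each group was small beside the distance between them, with a log2 difference of -0.94 ± 0.15 and an adjusted p of 0.00180.

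At the inner membrane, all 8 genes of the TIM23 complex and its motor were lower in Myc/NrasG12V, beside 29.5% of all tested genes. Their median log2 difference was -0.95. Timm23 itself, the channel subunit, shared the largest difference of this role with Hspa9. It had 6.97, 7.71 and 9.17 CPM in Myc/NrasG12V, against 23.2, 21.3 and 23.9 CPM in Myc/Akt1 (-1.42 ± 0.20, adjusted p 0.000964). The motor chaperone Hspa9 (mortalin) had 484, 527 and 428 CPM in Myc/NrasG12V, against 1523, 1377 and 996 CPM in Myc/Akt1 (-1.42 ± 0.23, adjusted p 0.00180). Grpel1, the nucleotide exchange factor of Hspa9, had 81.4, 80.7 and 82.9 CPM in Myc/NrasG12V, against 212, 177 and 163 CPM in Myc/Akt1 (-1.16 ± 0.16, adjusted p 0.000889).

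The channel partner Timm17 is encoded by 2 genes. Timm17a had 29.2, 26.6 and 37.2 CPM in Myc/NrasG12V, against 66.7, 59.2 and 53.4 CPM in Myc/Akt1 (-0.93 ± 0.19, adjusted p 0.00503). Timm17b had 23.6, 25.5 and 16.8 CPM in Myc/NrasG12V, against 32.5, 29.5 and 49.9 CPM in Myc/Akt1 (-0.72 ± 0.25). Timm17b passed narrowly, at an adjusted p of 0.0496, and lost its call in 16 of 19 alternative settings, over which the adjusted p ran from 0.0479 to 0.330. The other 3 were Timm21 (-0.96), which links TIM23 to TOM, the presequence receptor Timm50 (-0.64) and Timm44 (-0.67), which tethers Hspa9 to the channel. With TMM factors 6 of the 8 remained lower, beside 19.4% of all tested genes. The exceptions were Timm17b and Timm50.

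Of the TIM22 complex and the small TIM chaperones, 3 of 7 tested genes (42.9%) were lower in Myc/NrasG12V, beside 29.5% of all tested genes, with a median log2 difference of -0.46. The called genes were Timm22 (-0.77), the carrier channel, and the partners Timm9 and Timm10, which form a chaperone ring in the intermembrane space. Timm9 had 17.2, 22.5 and 42.0 CPM in Myc/NrasG12V, against 62.5, 53.8 and 52.0 CPM in Myc/Akt1 (-1.11 ± 0.30, adjusted p 0.0179). Timm10 had 13.7, 16.8 and 24.3 CPM in Myc/NrasG12V, against 36.5, 26.3 and 31.9 CPM in Myc/Akt1 (-0.79 ± 0.24, adjusted p 0.0318). In both genes Myc/NrasG12V replicate 3 was the highest of its group and came close to the lowest Myc/Akt1 library.

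The remaining small TIMs did not pass. Timm13 had 40.3, 44.3 and 64.3 CPM in Myc/NrasG12V and 55.3, 58.9 and 94.1 CPM in Myc/Akt1, with a log2 difference of -0.46 (95% interval from -1.05 to 0.12). Timm8a1 had 7.74, 8.03 and 16.2 CPM in Myc/NrasG12V and 12.6, 11.9 and 15 CPM in Myc/Akt1 (-0.35, 95% interval from -1.02 to 0.32). Timm8b had 29.9, 33.8 and 47.1 CPM in Myc/NrasG12V and 43.1, 36.6 and 44.9 CPM in Myc/Akt1 (-0.18, 95% interval from -0.65 to 0.29), and its sign turned with TMM factors, to 0.07. Timm8a1 and Timm8b are partners of Timm13 and overlapped between groups in every case. Timm10b, a TIM22 subunit, had the most positive log2 difference of the tested members, 0.38 (95% interval from -0.30 to 1.05). It had 9.17, 7.71 and 12.5 CPM in Myc/NrasG12V and 7.47, 4.84 and 10 CPM in Myc/Akt1. Annotated exons of Timm10b share 10.5% of their bases with Gm45799 on the same strand and 7.73% with Arfip2 on the opposite strand. Arfip2 averaged 36.1 CPM in Myc/NrasG12V and 22.7 CPM in Myc/Akt1 (log2 difference 0.65, limma adjusted p 0.0284). With TMM factors 1 of the 7, Timm9, was lower, where 19.4% of all tested genes were, so the share of this role lay near that of all genes.

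**Figure D3:**
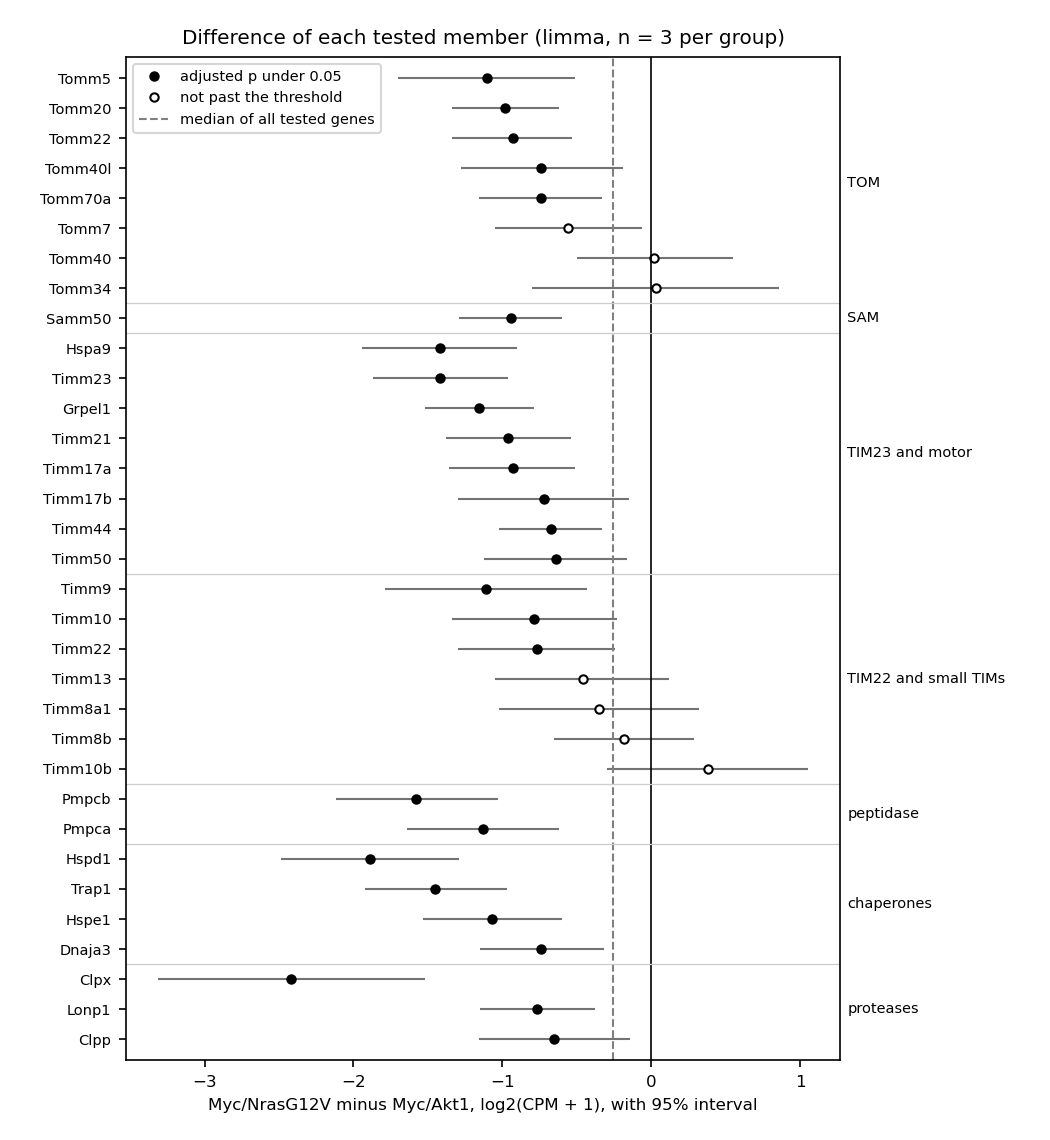
Points give the log2 difference of each tested member, Myc/NrasG12V minus Myc/Akt1, on log2(CPM + 1) with its 95% interval (limma, n = 3 per group), grouped by role; filled points passed an adjusted p of 0.05 and the dashed line is the median of all tested genes at -0.26. The TIM23, peptidase, chaperone and protease rows are all filled, and the 7 open points are 3 TOM genes and 4 of the TIM22 and small TIM rows.

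In the matrix, both subunits of the processing peptidase were lower in Myc/NrasG12V, beside 29.5% of all tested genes. Pmpcb, the catalytic subunit, had 79.9, 89.0 and 48.2 CPM in Myc/NrasG12V, against 233, 214 and 188 CPM in Myc/Akt1 (-1.58 ± 0.24, adjusted p 0.00136). Pmpca, which recognises the presequence, had 55.0, 57.9 and 42.8 CPM in Myc/NrasG12V, against 139.7, 125 and 84.3 CPM in Myc/Akt1 (-1.13 ± 0.22, adjusted p 0.00490). The groups were separate for both. Annotated exons of Pmpca share 20.4% of their bases with Inpp5e on the opposite strand, a gene at 6.97 to 10.1 CPM in Myc/NrasG12V and 9.59 to 11.7 CPM in Myc/Akt1.

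All 4 folding chaperones were lower, beside 29.5% of all tested genes. Their median log2 difference was -1.26 and their summed level was 3.07-fold higher in Myc/Akt1. Hspd1 (HSP60, ENSMUSG00000025980, chr1:55077835-55088243, GRCm38), the barrel in which matrix proteins fold, had 297, 381 and 311 CPM in Myc/NrasG12V, against 1494, 1439 and 838 CPM in Myc/Akt1. The log2 difference was -1.89 ± 0.26 with an adjusted p of 0.000928, and Myc/Akt1 replicate 3 lay between the groups but far above all Myc/NrasG12V libraries. Hspe1 (HSP10, ENSMUSG00000073676, chr1:55088132-55091307), the lid of that barrel, had 59.4, 93.9 and 77.8 CPM in Myc/NrasG12V, against 150.4, 146 and 186 CPM in Myc/Akt1 (-1.07 ± 0.20, adjusted p 0.00411). Trap1, the mitochondrial HSP90, had 135, 129 and 94.7 CPM in Myc/NrasG12V, against 359, 362 and 262 CPM in Myc/Akt1 (-1.45 ± 0.21, adjusted p 0.00109). Dnaja3, a J-domain co-chaperone of Hspa9, had a smaller log2 difference of -0.74, and its call was lost with TMM factors. Hspd1-ps3, a named pseudogene copy of Hspd1, averaged 0.727 CPM in Myc/NrasG12V and 4.50 CPM in Myc/Akt1, few beside the reads of Hspd1; how reads shared by both were counted is not given in the sources used here.

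Hspd1 and Hspe1 lie head to head on chromosome 1 and are transcribed away from each other, with annotated exons that overlap by 112 bases. The site shown lies between a RefSeq start of Hspd1 at 55087932 and that of Hspe1 at 55088148, upstream of these starts, and is shown because both genes were lower. RefSeq also has an Hspd1 start at 55088243, and the site lies downstream of that start. Capitals mark, in the Hspe1 direction, a heat shock element core (GAANNTTC) in the first line and an ETS motif (CCGGAAG or its complement) in the second; these overlap each other. Coordinates are GRCm38.p6 and the sequence is from RefSeq.
Hspe1 (chr1:55088054-55088081, plus strand): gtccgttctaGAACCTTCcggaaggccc
Hspe1 (chr1:55088058-55088084, plus strand): gttctagaacCTTCCGGaaggccccgc

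The 3 matrix protease genes were lower, beside 29.5% of all tested genes, and Clpx changed most of all members. Clpx (ENSMUSG00000015357, chr9:65294260-65330658, GRCm38), the unfoldase that feeds proteins to the Clpp protease, had 44.5, 81.0 and 43.8 CPM in Myc/NrasG12V, against 409.8, 396 and 155 CPM in Myc/Akt1. The log2 difference was -2.42 ± 0.39 with an adjusted p of 0.00191, and Myc/Akt1 replicate 3 was well under its group mates. Clpp, the protease subunit, had a log2 difference of -0.65 and an adjusted p of 0.0476, and lost its call in 13 of 19 alternative settings, over which the adjusted p ran from 0.00966 to 0.316. Lonp1, the other soluble matrix protease, had 146, 161 and 132 CPM in Myc/NrasG12V, against 274, 260.3 and 218 CPM in Myc/Akt1 (-0.77 ± 0.17, adjusted p 0.00757). With TMM factors Clpx alone of the 3 was still called, where 19.4% of all tested genes were lower.

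Levels between genes were compared per kilobase of annotated mRNA. Hspd1 averaged 136 ± 18.6 CPM per kilobase in Myc/NrasG12V and 519 ± 150 in Myc/Akt1 (SD, n = 3 each). Hspa9 averaged 157 ± 16.3 CPM per kilobase in Myc/NrasG12V and 426 ± 89.1 in Myc/Akt1. These genes had the highest levels of the set in both groups, and within each group their ranges over the libraries overlapped. Hspe1 came next, at 99.5 ± 22.3 CPM per kilobase in Myc/NrasG12V and 208 ± 28.4 in Myc/Akt1. Tomm40 stood at 35.4 ± 8.58 in Myc/NrasG12V and 34.8 ± 7.51 in Myc/Akt1. In Myc/NrasG12V that was within the spread of Clpp (35.0 ± 7.54) and Timm44 (34.1 ± 3.39), which stood higher in Myc/Akt1, at 55.5 ± 12.7 and 54.5 ± 1.31. Timm23 stood at 6.78 ± 0.954 in Myc/NrasG12V and 19.4 ± 1.15 in Myc/Akt1. The lowest of the tested members was Tomm40l, at 0.725 ± 0.105 in Myc/NrasG12V and 1.36 ± 0.307 in Myc/Akt1.

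Ratios between genes of the same library do not depend on scaling, so 10 ratios of partners or paralogs were compared. With 3 against 3 libraries an exact two-sided permutation test cannot go below 0.1, and after adjustment over the 10 ratios no p was below 0.25. The ratio of Tomm40 to Tomm22 was 0.897, 0.704 and 0.959 in Myc/NrasG12V, against 0.384, 0.360 and 0.586 in Myc/Akt1. Timm10 over Timm10b was 1.49, 2.17 and 1.94 in Myc/NrasG12V, against 4.89, 5.44 and 3.18 in Myc/Akt1. Neither overlapped between groups, nor did Pmpca over Pmpcb and Tomm40 over Tomm40l; each of the 4 had an exact p of 0.1.

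The ratio of Hspd1 to Hspe1 was 5, 4.05 and 3.99 in Myc/NrasG12V, against 9.93, 9.85 and 4.50 in Myc/Akt1 (exact permutation p = 0.2). Clpx over Clpp was 1.54, 2.56 and 1.02 in Myc/NrasG12V, against 8.30, 8.70 and 2.25 in Myc/Akt1 (exact permutation p = 0.2). In both, Myc/Akt1 replicate 3 fell among the Myc/NrasG12V libraries and the other 2 Myc/Akt1 libraries lay well above them.

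**Figure D4:**
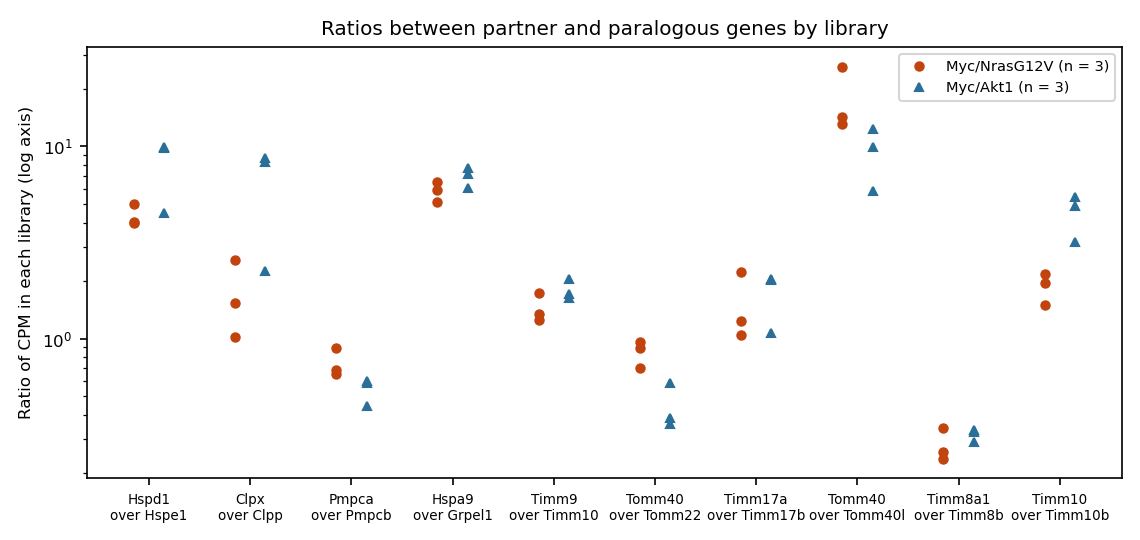
Each column is a ratio of the CPM of 2 genes in the same library on a log axis, with 3 Myc/NrasG12V libraries as circles on the left and 3 Myc/Akt1 libraries as triangles on the right. Tomm40 over Tomm22 and Timm10 over Timm10b separate the groups, and for Hspd1 over Hspe1 and Clpx over Clpp a single Myc/Akt1 library, replicate 3, sits with the Myc/NrasG12V libraries.

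Replicate 3 stood apart from its group in many members. In Myc/NrasG12V it was the highest of its group for 21 of 33 tested members and the lowest for 9. In Myc/Akt1 it was the lowest for 16 and the highest for 13. It lay above the mean of replicates 1 and 2 for 22 of 33 members in Myc/NrasG12V and 16 in Myc/Akt1. Among 14254 tested genes with a length, 8639 lay above it in Myc/NrasG12V and 6820 in Myc/Akt1, so such shifts were not particular to the members. The deviation followed mRNA length among the members. In Myc/NrasG12V, replicate 3 minus the mean of replicates 1 and 2 had a median of 0.57 over the 10 members with an mRNA under 1500 bases and 0.03 over the 23 longer ones, on the log2 scale. In Myc/Akt1 the same medians were 0.27 and -0.23. Over all tested genes with a length the short and long medians were 0.20 and 0.12 in Myc/NrasG12V, and 0.22 and -0.07 in Myc/Akt1. Spearman's rho with length was -0.54 in Myc/NrasG12V and -0.45 in Myc/Akt1 over the 33 members, and -0.05 and -0.35 over 14254 tested genes with a length, as a description across genes that share the same libraries. The difference between the groups had a rho of -0.17 with length over the members. Without both libraries numbered 3, an alternative chosen after seeing the data, 27 members were lower and 0 higher, against 37.4% of all tested genes lower, and the median of the members was -0.98.

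**Figure D5:**
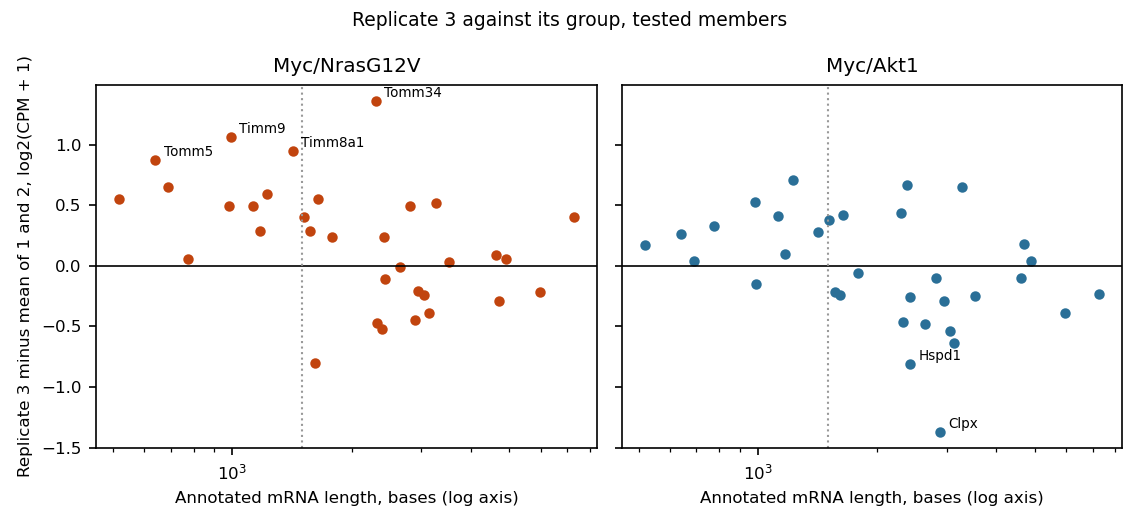
Each point is a tested member, placed by annotated mRNA length (bases, log axis) and by replicate 3 minus the mean of replicates 1 and 2 of its group on log2(CPM + 1), for Myc/NrasG12V on the left and Myc/Akt1 on the right; the dotted line is at 1500 bases. Members with short mRNAs lie mostly above 0, and Clpx and Hspd1 are the lowest points in Myc/Akt1.

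Genes outside the set, from a list of import, quality control and other genes related to mitochondria, were mostly lower too. Of 66 listed genes 65 were found and tested, 45 (69.2%) were lower in Myc/NrasG12V and 0 higher, beside 29.5% lower and 10% higher among all tested genes, with a median log2 difference of -0.84. With TMM factors 38 were lower and 1, Pprc1, was higher, beside 19.4% lower and 15% higher among all tested genes. The list covered 7 groups. All 5 other presequence and intermediate peptidases were lower, as were 10 of 11 inner membrane proteases and scaffolds. So were 9 of 10 genes taken as gauges of mitochondrial content, 10 of 17 other import genes and 6 of 11 regulators of mitochondrial biogenesis. In a mixed group of 5 assembly and chaperone genes, 4 were lower (Iscu, Hspa14, Bcs1l and Ecsit). The co-chaperone Hscb of that group did not pass (limma adjusted p 0.164). Of the 6 tested stress response regulators 1 (16.7%) was lower, a smaller share than the 29.5% of all tested genes; it was Atf5, a transcription factor of the mitochondrial unfolded protein response.

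The lowest adjusted p values in that list belonged to Cycs (cytochrome c), Cs (citrate synthase), Uqcrc1 (a subunit of respiratory complex III), the outer membrane channels Vdac1 and Vdac3, and Phb (prohibitin). Cycs had 11.9, 13.6 and 14.8 CPM in Myc/NrasG12V, against 77.0, 57.9 and 55.2 CPM in Myc/Akt1 (-2.15 ± 0.19, adjusted p 0.000152). Cs had 65.4, 74.5 and 73.4 CPM in Myc/NrasG12V, against 300.1, 241 and 205 CPM in Myc/Akt1 (-1.78 ± 0.18, adjusted p 0.000243). Uqcrc1, Vdac1, Vdac3 and Phb had log2 differences of -1.36, -1.36, -1.37 and -1.45. The genes taken as gauges of mitochondrial content summed to 2232 to 2387 CPM in Myc/NrasG12V and 5229 to 5738 CPM in Myc/Akt1. The sum was 2.38-fold higher in Myc/Akt1, beside 2.39-fold for the summed members. A few genes carry each sum: in Myc/Akt1 Atp5b averaged 2316 CPM among the gauges, and Hspa9 1299 and Hspd1 1257 CPM among the members. Per gene the lists differed, with median log2 differences of -1.36 for the gauges and -0.79 for the members. With TMM factors these medians were -1.10 and -0.54. Whether the members differed beyond mitochondrial content was not tested.

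Markers of other cell types and of cell division moved with the groups too. The shares of all tested genes, for comparison, were 29.5% lower and 10% higher. All 8 proliferation markers were lower in Myc/NrasG12V, with sums of 44.2 to 72.0 CPM against 467 to 871 CPM in Myc/Akt1. Neutrophil markers (6 of 7 tested higher) summed to 30.7 to 195 CPM in Myc/NrasG12V and 3.45 to 4.41 CPM in Myc/Akt1, and erythroid markers (4 of 6 higher) to 232 to 1481 CPM in Myc/NrasG12V and 46.1 to 88.8 CPM in Myc/Akt1. T and NK cell markers (4 of 6 higher) summed to 11.1 to 28.6 CPM in Myc/NrasG12V and 4.79 to 6.77 CPM in Myc/Akt1, and macrophage markers (3 of 6 higher) to 127 to 256 CPM in Myc/NrasG12V and 86.9 to 118 CPM in Myc/Akt1. Markers of a type did not all move alike. For Cd4 all Myc/NrasG12V libraries lay below all Myc/Akt1 libraries (log2 difference -0.63, not called). The erythroid Alas2 and Klf1 and the macrophage Adgre1 and Cd68 overlapped between groups.

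Hepatocyte markers were present in all libraries, and 3 of 8, Apoa1, Ahsg and Trf, were higher. The sums were 142894 to 192882 CPM in Myc/NrasG12V and 47066 to 60267 CPM in Myc/Akt1. Most of this was albumin, which averaged 110858 CPM in Myc/NrasG12V and 33563 CPM in Myc/Akt1. For albumin all Myc/NrasG12V libraries lay above all Myc/Akt1 libraries. Limma did not call albumin (log2 difference 1.72 ± 0.95 SE, limma adjusted p 0.184), and edgeR called it higher (2.05, edgeR adjusted p 0.00501). Hnf4a (log2 difference 0.08), Cps1 (0.20) and Apob (-0.49) overlapped between groups. For Ttr all Myc/NrasG12V libraries lay below all Myc/Akt1 libraries (-0.99, not called). Cholangiocyte and progenitor markers had 1 of 5 higher (sums of 424 to 968 CPM in Myc/NrasG12V and 128 to 262 CPM in Myc/Akt1). Endothelial markers had 3 of 6 higher and 1 lower (145 to 228 CPM in Myc/NrasG12V and 165 to 205 CPM in Myc/Akt1). None of 7 stellate and fibroblast markers (355 to 406 CPM in Myc/NrasG12V and 340.5 to 585 CPM in Myc/Akt1) and none of 2 tested B cell markers (1.79 to 4.44 CPM in Myc/NrasG12V and 2.00 to 2.80 CPM in Myc/Akt1) passed. No listed marker was at 0 in all libraries. The part of these shifts in the difference of the import and chaperone genes was not tested.

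Promoters of the members were read from RefSeq (GRCm38.p6), over the 250 bases before each start, for the 33 members in that table. A gene was counted if any of its starts had the motif. The ETS motif (CCGGAAG, either strand) stood in 12 of the 33, or 36.4%. It stood in 7.83% of 27025 genes with a promoter and in 14.6% of the tested genes among them. An E-box (CACGTG), the kind of site that Myc binds, stood in 6 (18.2%), against 6.86% and 9.69%. The NRF1 motif (GCATGCGC) stood in 3 (9.09%), against 2.56% and 4.79%. The motif CCAAT stood in 11 (33.3%), against 37.5% and 40.0%, and the heat shock element core (GAANNTTC) in 3 (9.09%), against 7.73% and 6.23%. The cyclic AMP element TGACGTCA stood in Trap1 alone (3.03%, against 1.77% and 2.98%), and TTGCATCA, the composite of ATF4 and CEBP, in none (against 0.918% and 0.738%). Hspd1 and Hspe1 share the same ETS and heat shock bases, which were counted for each gene. Among the 23 lower members with a promoter, 9 held the ETS motif and 4 the E-box. The ETS motif also stood in Timm8b and Tomm34, which were not called, and in the untested Timm8a2. The E-box also stood in Timm8a1, which was not called, and in the untested Tomm20l. A match is a description of letters, not a bound site.

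Short sites are shown for members that were lower, with the motif in capitals: ETS for Timm23, Pmpca and Tomm22, and the E-box for Lonp1.
Timm23 (chr14:32201922-32201948, minus strand): gcgcttcccaCTTCCGGgccgcacaca
Pmpca (chr2:26389285-26389311, plus strand): gctcggcgggCCGGAAGccagcgccga
Tomm22 (chr15:79670811-79670837, plus strand): gcccggctcgCTTCCGGaagacgctct
Lonp1 (chr17:56626924-56626949, minus strand): cgagcgtcatCACGTGcgcaaacggg

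The promoters of Clpx and Trap1, both strongly lower, and of Tomm40, which was not called, are set side by side because they differ in the motifs they hold. Capitals mark NRF1 and CCAAT (as ATTGG) in Clpx, the cyclic AMP element in Trap1 and 5 copies of CCAAT in Tomm40. Exon bases were left out.
Clpx promoter (chr9:65294010-65294259, plus strand): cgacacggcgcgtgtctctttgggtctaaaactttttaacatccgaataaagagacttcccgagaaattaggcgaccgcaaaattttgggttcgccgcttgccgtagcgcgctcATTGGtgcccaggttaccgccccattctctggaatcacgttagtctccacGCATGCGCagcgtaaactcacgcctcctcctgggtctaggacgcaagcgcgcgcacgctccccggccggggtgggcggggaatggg
Trap1 promoter (chr16:4077828-4078060, minus strand): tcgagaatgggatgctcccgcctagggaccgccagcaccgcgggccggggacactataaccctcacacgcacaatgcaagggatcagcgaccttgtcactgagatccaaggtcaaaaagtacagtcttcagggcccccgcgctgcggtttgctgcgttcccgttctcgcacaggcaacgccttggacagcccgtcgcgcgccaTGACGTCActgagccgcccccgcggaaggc
Tomm40 promoter (chr7:19715439-19715679, minus strand): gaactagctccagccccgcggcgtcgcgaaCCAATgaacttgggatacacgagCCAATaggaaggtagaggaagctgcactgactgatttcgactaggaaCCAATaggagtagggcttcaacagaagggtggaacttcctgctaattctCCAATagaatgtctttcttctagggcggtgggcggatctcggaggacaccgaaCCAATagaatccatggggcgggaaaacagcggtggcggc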

How the data were processed

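The members, gene lists, motifs and tests were chosen with earlier results of these data known. The deposited files hold CPM made by the authors, 1 value per gene and library. Per the submitters' processing notes, reads were processed on GRCm38 with STAR 2.6.1c and Subread 1.6.3, and edgeR 3.22.5 was named too; annotation release, strand setting and treatment of multi-mapped reads are not given in the sources used here. CPM values were whole multiples of 1 read (100% within 0.01 read), which gave back the reads. In each library the CPM of 1 read matched division by the recovered total, as with 0.0478 CPM at 20941840 reads in Myc/NrasG12V replicate 1. Library totals alone had therefore scaled the values.

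Of 39179 genes, 14365 passed edgeR's filterByExpr rule (0.457 CPM in 3 libraries, 15 reads in total). The test was limma 3.58.1 (trend, two-sided, pseudocount 1, R 4.3.3); differences are Myc/NrasG12V minus Myc/Akt1, and folds are ratios of mean CPM. Alternatives, 18 planned and 1 added, were other scalings, filters, pseudocounts, edgeR 4.0.16, DESeq2 1.42.0, limma without a trend, the replicate number as a block, and libraries left out. The procedure was tried on simulated data in which few genes changed, in both directions at random. Such data hold no overall shift and cannot decide between the scalings. Coordinates, mRNA lengths and exon overlaps came from GENCODE M21, which held all 37 members.

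Every member was named. Values per library were given for the 12 called members with the largest log2 difference, the 2 members of highest mean CPM in each role and the paralog pairs, and for Tomm34 in part, which was added after its values were seen. In the wider pathway list, up to 6 genes of lowest adjusted p per direction were named; Atf5 was named after its value was seen.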

Additional observations from a re-analysis of the deposited data

How the results depend on the processing

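The direction of the set held in all 19 alternatives, with 0 members higher in each. Scaling and test set the count of lower members, 26 with plain CPM: TMM gave 17, median-of-ratios 16, upper-quartile scaling 15, edgeR 15 and DESeq2 16. Leaving out a library gave 18 to 26. Of all tested genes, 29.5% were lower with plain CPM, 19.4% with TMM and 18.3% with median-of-ratios. That share was 16.4% with upper-quartile scaling, 17.5% with edgeR and 19.4% with DESeq2. With a library left out it was 20.1 to 33.4%. The median log2 difference of the members, -0.79, was -0.54 with TMM, -0.50 with median-of-ratios, -0.43 with upper-quartile factors and -0.58 with both edgeR and DESeq2, from -0.97 to -0.80 with a library left out and -0.98 without both libraries numbered 3. The wider list, with 0 genes higher, had 1 higher with TMM, median-of-ratios and edgeR, 2 with upper-quartile factors, 3 with DESeq2, 0 to 1 with a library left out and 2 without both libraries numbered 3.

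The calls of 15 members held in all 19 alternatives: Clpx, Grpel1, Hspa9, Hspd1, Hspe1, Pmpca, Pmpcb, Samm50, Timm17a, Timm21, Timm23, Tomm20, Tomm22, Tomm5 and Trap1. The other 11 called members lost the call in 4 (Timm44) to 16 (Timm17b) of them, and the cause was not tested. A dropped library ended calls as follows: Timm17b with any of the 6; Clpp with any but Myc/NrasG12V 3; Timm22 likewise; Tomm40l with any but Myc/Akt1 1; Timm9 with replicate 1 or 2 of either group; Timm10 and Timm50 with Myc/NrasG12V 1 or 2 or Myc/Akt1 1 or 3; Dnaja3 with Myc/Akt1 1 or 2; and Tomm70a with Myc/Akt1 1. Dropping Myc/NrasG12V 3 brought Tomm7 and Timm8a1 past the threshold. Timm8b, at -0.18, turned to 0.07 with TMM, 0.11 with median-of-ratios, 0.17 with upper-quartile factors and 0.14 with edgeR and DESeq2. Tomm34, at 0.03, ran from -0.42 (Myc/NrasG12V replicate 3 left out) to 0.30 when a library was dropped, was -0.02 and -0.07 when Myc/Akt1 replicate 1 or 2 was dropped, and was -0.28 without both libraries numbered 3. Tomm40, at 0.02, ran from -0.16 (Myc/NrasG12V replicate 3 left out) to 0.16 when a library was dropped. It was -0.15 when Myc/Akt1 replicate 2 was dropped and -0.02 without both numbered 3. Scaling moved both genes up: Tomm40 was 0.28 with TMM and 0.33 with edgeR, and at most 0.38 over all alternatives. Tomm34 was 0.28 with TMM and 0.45 with edgeR. Neither gene was called in any alternative.

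With the replicate number as a block, 25 members were lower, beside 28.3% of all tested genes, and the median of the members was -0.79. In that setting 5530 genes changed and 1 gene of the wider list was higher. Among the members Tomm7 was gained (adjusted p 0.0432, 0.0205 to 0.483 over all alternatives), and Tomm40l (0.0571, 0.0260 to 0.201) and Timm17b (0.0831, 0.0479 to 0.330) were lost. The numbers share no documented source. Deviations of same-numbered libraries correlated at -0.08, 0.11 and 0.08, and those of differently numbered libraries at -0.14 to 0.09. Such correlations cannot decide whether same-numbered samples share a batch, which was not tested. Depth limits the 4 untested members and, among tested ones, Tomm40l at 685 reads in all.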

Other observations

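Of the regulators of mitochondrial biogenesis and stress some were lower in Myc/NrasG12V and others did not pass the test; these genes were picked from the wider pathway list after their values were seen. Gabpa, the DNA-binding subunit of an ETS factor known to act on mitochondrial genes, had 31.9, 34.1 and 35.0 CPM in Myc/NrasG12V, against 69.5, 76.6 and 66.0 CPM in Myc/Akt1 (log2 difference -1.05 ± 0.15 SE, limma adjusted p 0.00121). Its partner Gabpb1 averaged 15.1 ± 3.67 CPM in Myc/NrasG12V and 17.5 ± 2.31 CPM in Myc/Akt1 (SD, n = 3 each), with overlapping groups. Tfam, which packages and transcribes mitochondrial DNA, had 34.8, 34.9 and 37.0 CPM in Myc/NrasG12V, against 97.3, 84.9 and 65.9 CPM in Myc/Akt1 (-1.18 ± 0.18, adjusted p 0.00151). Both Gabpa and Tfam were separate between the groups.

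Nrf1, another activator of nuclear genes for mitochondria, averaged 14.3 ± 3.35 CPM in Myc/NrasG12V and 14.1 ± 1.08 CPM in Myc/Akt1, and the heat shock regulator Hsf1 averaged 25.9 ± 5.36 CPM in Myc/NrasG12V and 25 ± 1.63 CPM in Myc/Akt1. Pprc1, a coactivator of the PGC-1 family, averaged 74.8 ± 10.7 CPM in Myc/NrasG12V and 50.5 ± 12.5 CPM in Myc/Akt1; it was not called on the CPM scale and was the gene of the wider list called higher with TMM factors. Atf5 had 101, 137 and 102 CPM in Myc/NrasG12V, against 249.8, 217 and 323 CPM in Myc/Akt1, while Atf4 overlapped between the groups.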
